A study of Mus musculus with 4 samples.

Results

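The CXC chemokines described here are Cxcl1, Cxcl2, Cxcl9, Cxcl10, Cxcl12, Cxcl13, Cxcl14, Cxcl15 and Cxcl16, 9 genes of the 31054 in the count matrices. They were chosen by symbol, as a family, and their unnormalised UMI counts (unique molecular identifiers, 1 per captured RNA molecule) were read from all 4 matrices. The study profiled single cells of lungs from male C57BL/6 mice that were 19 months old when treatment began. Mice received for 1 month either BPTES, an inhibitor of the glutaminase GLS1, or its solvent DMSO, with 2 libraries per group, named BPTES 1, BPTES 2, DMSO 1 and DMSO 2 below. Lungs were digested with Liberase for 1 hour, and each 10x Genomics GEM-X 3' library was loaded with 20000 sorted cells lacking the leukocyte marker CD45 and 9000 carrying it. No group was young, so every value below comes from aged lung, with the solvent as the only control.

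Chemokines are small secreted proteins that guide leukocytes along gradients, and the CXC family is named for the spacing of its first cysteines. Cxcl1 and Cxcl2 attract neutrophils through Cxcr2, Cxcl9 and Cxcl10 are induced by interferons and attract T and NK cells through Cxcr3, Cxcl12 retains leukocytes and progenitors through Cxcr4 and is also bound by the scavenger Ackr3, and Cxcl13 draws B cells into follicles through Cxcr5. Cxcl14 is made by stromal cells, Cxcl15 (lungkine) is a lung epithelial chemokine of rodents, and Cxcl16 is a membrane-bound ligand of Cxcr6.

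In the mm10 annotation used for coordinates (GENCODE M21), 6 members lie on chromosome 5: Cxcl15 at chr5:90794534-90803067, Cxcl1 at chr5:90891241-90893115 and Cxcl2 at chr5:90903871-90905938, all on the plus strand, Cxcl9 at chr5:92321347-92328079 and Cxcl10 at chr5:92346638-92348889 on the minus strand, and Cxcl13 at chr5:95956951-95961068 on the plus strand. Cxcl12 lies at chr6:117168535-117181367 (plus), Cxcl14 at chr13:56288643-56296551 (minus) and Cxcl16 at chr11:70453983-70459984 (minus). Cxcl10 lies wholly within Art3 on the opposite strand, over 2252 bases, and Cxcl16 overlaps Zmynd15 on the opposite strand by 552 bases. The strand setting of the authors' counting is not given in the sources used here, so reads of these overlaps could not be assigned to a strand.

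The 250 bases before the RefSeq start (GRCm38.p6) are printed for the 3 inflammatory ligands and the 2 lymphoid-tissue ligands that the comparisons turn on, to set promoters with matches beside promoters without. Both strands were searched for the NF-kB consensus and for the interferon-stimulated response element GAAANNGAAA, and capitals mark the matches. Each is printed 5' to 3' on the gene's own strand, from chr5:90890995-90891244 for Cxcl1, chr5:90903649-90903898 for Cxcl2, chr5:92348890-92349139 (minus strand) for Cxcl10, chr6:117168285-117168534 for Cxcl12 and chr5:95956689-95956938 for Cxcl13.
Cxcl1: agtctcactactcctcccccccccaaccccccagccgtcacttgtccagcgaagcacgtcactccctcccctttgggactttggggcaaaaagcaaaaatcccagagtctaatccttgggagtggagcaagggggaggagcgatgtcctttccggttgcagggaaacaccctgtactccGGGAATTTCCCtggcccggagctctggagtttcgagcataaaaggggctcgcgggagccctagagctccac
Cxcl2: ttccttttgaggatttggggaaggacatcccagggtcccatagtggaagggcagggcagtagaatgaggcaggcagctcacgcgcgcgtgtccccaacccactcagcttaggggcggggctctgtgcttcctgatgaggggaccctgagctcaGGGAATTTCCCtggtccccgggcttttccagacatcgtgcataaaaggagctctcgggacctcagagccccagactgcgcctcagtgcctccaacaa
Cxcl10: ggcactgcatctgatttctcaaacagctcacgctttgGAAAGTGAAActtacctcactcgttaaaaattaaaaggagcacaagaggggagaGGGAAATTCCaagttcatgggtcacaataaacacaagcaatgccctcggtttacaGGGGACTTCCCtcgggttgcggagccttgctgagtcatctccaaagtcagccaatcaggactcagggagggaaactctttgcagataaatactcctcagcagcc
Cxcl12: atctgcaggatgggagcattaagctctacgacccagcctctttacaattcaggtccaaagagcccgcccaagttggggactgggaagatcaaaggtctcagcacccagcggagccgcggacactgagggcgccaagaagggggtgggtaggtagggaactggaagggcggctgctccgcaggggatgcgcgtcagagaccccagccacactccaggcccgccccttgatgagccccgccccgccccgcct
Cxcl13: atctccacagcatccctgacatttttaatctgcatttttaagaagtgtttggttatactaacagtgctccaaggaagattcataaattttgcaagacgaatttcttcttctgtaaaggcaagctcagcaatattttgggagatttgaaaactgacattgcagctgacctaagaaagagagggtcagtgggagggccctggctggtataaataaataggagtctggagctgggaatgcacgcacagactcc
Cxcl1 and Cxcl2 each held 1 NF-kB place, beginning 71 and 97 bases before the start. Cxcl10 held 2 NF-kB places, 159 and 104 bases before the start, and 1 interferon-stimulated element 213 bases before it. The windows of Cxcl9, Cxcl12, Cxcl13 and Cxcl15 held neither set of letters, and that of Cxcl14 held 1 interferon-stimulated element at 172 bases. The RefSeq table used here gave such a window for 8 of the 9 members, and Cxcl16 was not analysed here. Of all 32851 windows of this length, 7.25% held the NF-kB consensus and 2.98% the interferon-stimulated element. A match is a stretch of letters and not a measured binding site.

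The libraries held 16440 to 21986 cell barcodes and 260346570 to 342107092 UMIs, and 14407 to 18860 cells per library were kept, 63895 in all, with a median depth of 14021.5 to 15866 UMIs. No cell annotation was used from the authors. The cells were clustered anew, with the members and the CXC receptors left out of the clustering genes, and clusters were named from marker genes, so each class name below means cells like that type. Of 42 clusters, 33 were given 1 of 25 class names and 9 (16.6% of the cells) stayed unnamed. In 22 classes every library had at least 30 cells, and these were tested. Libraries shared 56 to 96 cell barcodes per pair. The male gene Ddx3y was at 156 to 204 CPM (UMIs per 1000000 UMIs) and Xist at 0.0847 to 0.132 in all 4 libraries.

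Levels are a gene's UMIs per 1000000 UMIs (CPM) of the same class in the same library, and are compared only within a gene. The orders of levels below are orders among the 22 tested classes. The classes that held most of the UMIs differed between members. Cxcl15 came almost wholly from alveolar type 2 (AT2) cells, which held 97.6% of its UMIs in the kept cells. Neutrophils held 63.7% of the Cxcl2 UMIs, general capillary endothelium 54.3% of the Cxcl12 UMIs, alveolar fibroblasts 48.5% of the Cxcl14 UMIs and adventitial fibroblasts 39.3% of the Cxcl1 UMIs. Cxcl13 was split between interstitial macrophages (41.8%) and adventitial fibroblasts (40.7%). Cxcl10 and Cxcl16 were spread more widely, with at most 19.9% of the UMIs of either in 1 class, and Cxcl9 was sparse, with 3336 UMIs in 355 cells.

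**Figure D1:**
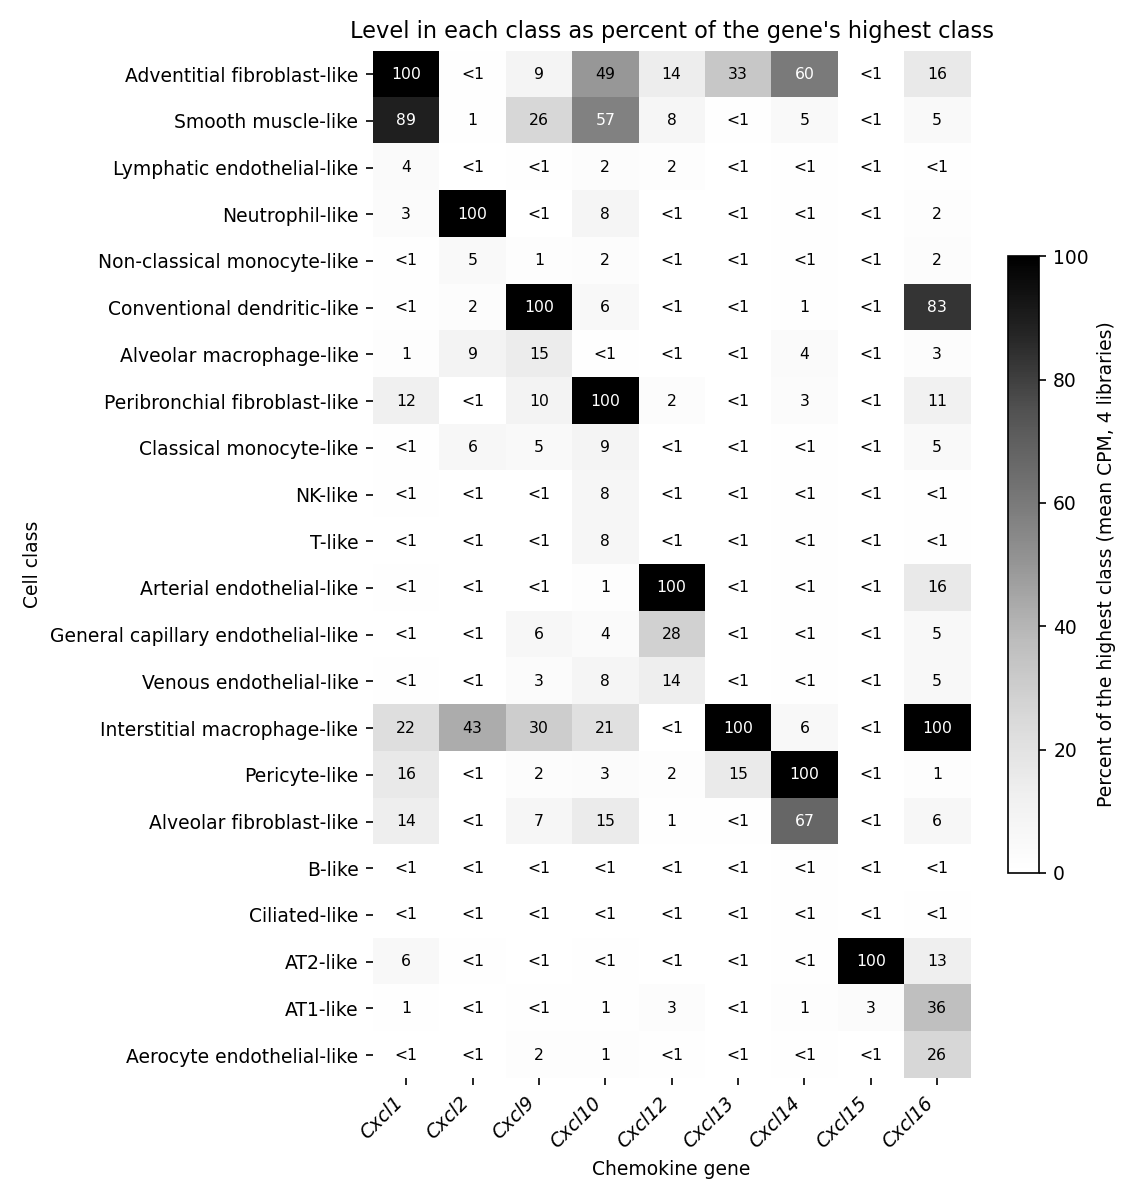
Level of each CXC chemokine in the 22 tested classes, as a percent of its own highest class, from the mean CPM over 4 libraries (darker is higher). Cxcl15 is nearly confined to AT2 cells, whereas Cxcl10, Cxcl1 and Cxcl16 are at 10% or more of their highest level in 5, 6 and 8 classes.

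BPTES and DMSO were compared on summed UMIs per library and class with edgeR's quasi-likelihood test and Benjamini-Hochberg adjustment over all genes of the class, and a gene was called at an adjusted p under 0.05. Of the 198 pairs of a member and a class, 154 passed the filter on low counts, and 1 was called: Cxcl12 rose in alveolar fibroblasts. Over all genes and classes the test called 0.116% (309 of 266665). At an unadjusted p under 0.05 were 52 pairs of the members, 34 higher and 18 lower with BPTES, where all genes gave 11.3%. DESeq2 called 14 member pairs against 1.07% over all genes. These pairs include Cxcl12 and Cxcl15 in NK cells, whose tests are not read below. The 2 BPTES libraries both lay above both DMSO libraries in 48 pairs and both below in 26 pairs, against 18.8% and 24.3% of all gene and class pairs. Of the 34 and 48 higher pairs, 17 and 18 belonged to Cxcl15, whose level outside AT2 cells is described below. In single classes the groups did not overlap for 27.9% to 55.9% of all genes tested. Fits with 1 library left out called 14 member pairs without BPTES 1, 9 without BPTES 2, 4 without DMSO 1 and 29 without DMSO 2, against 1.47%, 0.407%, 0.386% and 1.23% of all gene and class pairs, with the lone library of a group assumed to vary like the others. Where such a fit is named below for a pair, the fits not named did not call that pair. The labels do not say that the libraries came from separate animals, so p-values measure the spread between libraries, which may be technical.

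Summed over all kept cells, where the number of source cells and the level per cell cannot be told apart, no member was called among 21469 genes (0% called by edgeR). Cxcl9, Cxcl12 and Cxcl16 were higher and Cxcl13 lower with BPTES at DESeq2 adjusted p-values of 0.000574, 0.00410, 5.8e-07 and 0.0406, where DESeq2 called 5.75% of all genes. At an unadjusted edgeR p under 0.05 were these 4 and Cxcl15, where all genes gave 17.3%. Cxcl16 was at 38.7 and 39.2 CPM with BPTES against 29.9 and 29.7 with DMSO. The share of kept cells with a Cxcl9 UMI was not higher: 0.429% and 0.588% with BPTES and 0.604% and 0.594% with DMSO.

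Cxcl12, the ligand of Cxcr4, had its highest level in arterial endothelium, at 2314 and 3164 CPM in BPTES 1 and 2 and at 2307 and 2013 in DMSO 1 and 2. General capillary endothelium followed at 806 and 779.7 CPM with BPTES and 581 and 611 with DMSO. These classes were apart from each other and from the next, adventitial fibroblasts (328, 266, 473.5 and 318.5 CPM), whose range overlapped that of venous endothelium (320.2, 383, 329 and 306). No other tested class reached 10% of the arterial level. Among classes with too few cells to test, platelets or megakaryocytes (17 to 38 cells per library) held 333, 585, 308 and 166 CPM on 40 to 124 UMIs.

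In alveolar fibroblasts Cxcl12 stood at 36.6 and 35.3 CPM in BPTES 1 and 2 and at 21.1 and 21.7 in DMSO 1 and 2, 36.0 ± 0.927 against 21.4 ± 0.397 (SD, n = 2 libraries each). This is 1.17% of the highest class level. Both BPTES libraries were above both DMSO libraries, and the log2 fold change of BPTES over DMSO was 0.78 (SE 0.072, adjusted p = 0.0155 by edgeR's quasi-likelihood test), in a class where 0.227% of 16293 genes were called. With 1 library left out it was called in all 4 fits, at 0.74 to 0.82 (adjusted p = 0.00773 to 0.0461). The share of alveolar fibroblasts with a Cxcl12 UMI was 31.4% and 30.8% with BPTES and 20.6% and 22.0% with DMSO, and 7.70%, 6.84%, 5.19% and 5.20% after each cell was thinned to 3000 UMIs. The unthinned and the thinned share of alveolar fibroblasts were higher in both BPTES libraries. In B cells, where free RNA may give UMIs, the share was 3.10% to 6.00%, and 0.754% to 1.61% after thinning. The larger B cell cluster had a Cxcl12 log2 fold change of 0.99 (adjusted p = 0.675 by edgeR), in the same direction, and the part of free RNA was not tested.

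The alveolar fibroblasts comprised 2 clusters, and the one with less Cxcl12 held 57.1% and 61.7% of the class with BPTES and 72.6% and 66.1% with DMSO. Within that cluster Cxcl12 was at 14.8 and 13.5 CPM against 9.82 and 10.4 (log2 fold change 0.51, adjusted p = 0.108). In the other it was at 63.8 and 67.1 CPM against 49.4 and 42.2 (0.53, adjusted p = 0.0623 by edgeR). Neither cluster passed the test by itself. Outside the class lay unnamed clusters with alveolar fibroblast markers. The one led by Atf5 and Gpx3 gave a Cxcl12 log2 fold change of 0.06 (adjusted p = 0.963 by edgeR). The one led by Col28a1 gave 0.10 (adjusted p = 0.637 by edgeR), so the called rise holds for the named class only. With doublets kept the class value was 0.61 (adjusted p = 0.0714) and with a mitochondrial limit of 5% it was 0.60 (adjusted p = 0.0675). The 8 general capillary markers summed to 73.1, 56.3, 52.7 and 69.3 CPM in alveolar fibroblasts and overlapped between groups. The 8 adventitial markers were higher with BPTES (452, 387, 339.6 and 340.2 CPM). The summed level of the 8 arterial markers, of the class highest in Cxcl12, was higher too (6924, 7478, 5104 and 5908 CPM). Mgp gave 6809, 7370, 4982 and 5785 CPM of it. Gja5, the next most abundant of them, was lower with BPTES (101.9, 97.5, 110.9 and 110.3 CPM). The rest of the arterial markers were at 5.09 CPM or less in every library. The part of these markers' cells in the result was not tested.

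General capillary endothelium, with most of the Cxcl12 UMIs, had a log2 fold change of 0.49 (SE 0.077) that missed the edgeR threshold (adjusted p = 0.115), in a class where 0% of 15822 genes were called. DESeq2 gave an adjusted p of 4.2e-05 there, but it called 454 genes higher and 280 lower in this class. With 1 library left out, edgeR called Cxcl12 there only without BPTES 1 (0.50). The interval of 2 SE around 0.49 ran from 0.33 to 0.64. Of the 3 clusters of this class, the one with the highest Cxcl12 held 24.9% and 38.2% of it with BPTES and 11.4% and 19.5% with DMSO. The clusters by themselves gave 0.44, 0.40 and 0.35 (adjusted p = 0.0934, 0.156 and 0.190). Arterial endothelium, with 0.0693% of genes called, gave 0.40 (SE 0.17, adjusted p = 0.381 by edgeR). With 1 library left out it was called only without BPTES 1 (0.64), the BPTES library whose level was close to that of DMSO 1. Adventitial fibroblasts gave −0.39 (SE 0.21, adjusted p = 0.458 by edgeR), and with 1 library left out were called only without DMSO 2 (−0.67). The adventitial cluster with more Cxcl12 held 60.1% and 61.1% of the class with BPTES and 75.9% and 63.7% with DMSO, and the 2 clusters by themselves gave −0.21 and 0.24 (adjusted p = 0.728 and 0.693). Venous endothelium gave 0.19 with an interval of −0.04 to 0.41. Aerocyte capillary endothelium gave 0.81 (adjusted p = 0.206 by edgeR). With 1 library left out it was called only without BPTES 2 (1.10) and without DMSO 2 (0.85). NK cells went the other way, on few UMIs: 3 and 6 with BPTES and 23 and 61 with DMSO, or 1.501 and 2.22 against 7.91 and 24.6 CPM. There Cxcl12 passed the filter on low counts only through the DMSO libraries, where it was high, so its test is not read. The counts of pairs and classes still include it. The 2 richest NK cells held 33.3% to 75.4% of a library's NK Cxcl12. Over the 22 classes Cxcl12 was higher with BPTES in 15, and the groups did not overlap in 10 classes higher and 2 lower, where all gene and class pairs gave 18.8% and 24.3%. The rise in alveolar fibroblasts exceeded that in arterial endothelium by 0.38 on the log2 scale, a difference that edgeR did not call (adjusted p = 0.596).

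**Figure D2:**
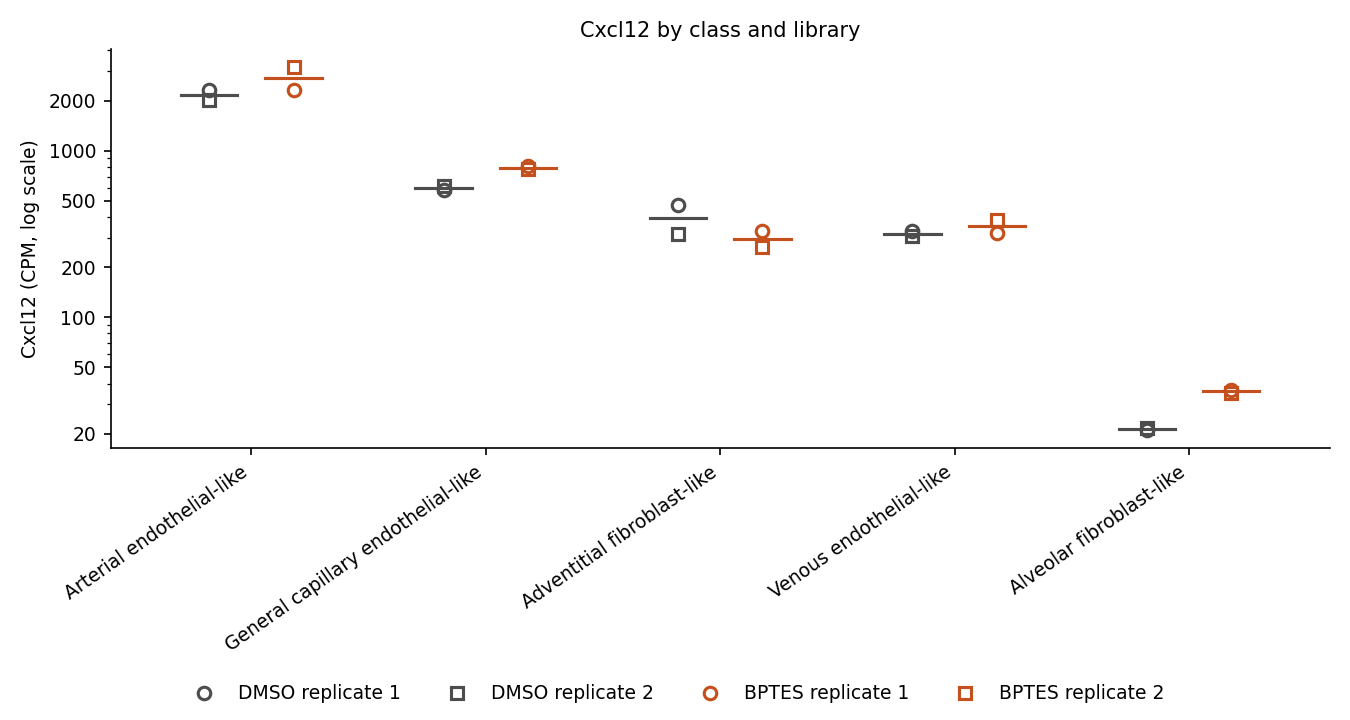
Cxcl12 in CPM (log axis) in each library, for the 4 classes with the highest levels and for alveolar fibroblasts. Points are libraries, coloured by group. The BPTES and DMSO points are apart in alveolar fibroblasts (36.6 and 35.3 against 21.1 and 21.7), in general capillary endothelium and, narrowly, in arterial endothelium (2314 and 3164 against 2307 and 2013), and overlap in adventitial fibroblasts and venous endothelium.

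The receptor Cxcr4 was highest in non-classical monocytes, at 434 and 379.9 CPM with BPTES and 359 and 357 with DMSO (log2 fold change 0.21, adjusted p = 0.541 by edgeR), and next in B cells, at 379.8 and 394 against 329 and 304. Ackr3, the atypical receptor that removes Cxcl12, was highest in venous endothelium at 529, 383, 383 and 451 CPM, where the groups overlapped. Of 78 pairs of the 8 CXC receptors with a class, 1 was called higher and 1 lower, both in interstitial macrophages, where 1.03% of 12205 genes were called. Ackr3 rose there from 5.18 ± 1.62 to 19.3 ± 3.88 CPM (log2 fold change 1.97, adjusted p = 0.0406). The other was Cxcr5, given with Cxcl13 below.

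Cxcl13, which organises B cell follicles, was found mainly in 3 of the tested classes. Interstitial macrophages held 222 and 106 CPM in BPTES 1 and 2 and 499.99 and 514 in DMSO 1 and 2. Adventitial fibroblasts held 6.32 and 31.4 CPM with BPTES and 275 and 128 with DMSO. Pericytes held 60.8 and 62.4 CPM with BPTES and 37.0 and 46.3 with DMSO. In macrophages and adventitial fibroblasts both BPTES libraries were below both DMSO libraries, and in pericytes both were above. Neighbouring classes in this order overlapped over the 4 libraries, while pericytes were apart from the next class, smooth muscle, which held at most 6.78 CPM.

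None of these differences passed edgeR's test. The log2 fold change was −1.62 (SE 0.30, adjusted p = 0.0639) in interstitial macrophages, from 507 ± 9.81 to 164 ± 81.9 CPM (SD, n = 2). It was −3.30 (SE 0.69, adjusted p = 0.202) in adventitial fibroblasts, where no gene was called (0%), and 0.55 (adjusted p = 0.711) in pericytes. DESeq2 gave an adjusted p of 0.0424 for the macrophages. Without the 2 cells richest in Cxcl13 of each library, the macrophage value was −1.57 and edgeR's adjusted p 0.0467. With 1 library left out, edgeR called the macrophage value only without BPTES 1 (−2.23). It called the adventitial value only without DMSO 1 (−2.60) and without DMSO 2 (−3.74), and not with either BPTES library left out.

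Few cells carried the transcript. A Cxcl13 UMI was seen in 8.75% and 12.3% of interstitial macrophages with BPTES and 17.3% and 27.6% with DMSO. The shares were 5.04% and 3.64% against 11.9% and 11.6% in adventitial fibroblasts, and 0% to 0.842% in B cells. After thinning to 3000 UMIs the macrophage shares were 5.60%, 7.38%, 9.18% and 21.1%. The 2 richest macrophages of a library held 29.0% to 56.9% of that library's macrophage Cxcl13. Within the adventitial class 1 of the 2 clusters, led by Scara5 and Ccl11, held nearly all of it (10.1 and 50.5 against 347.5 and 189.9 CPM).

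The libraries also differed in where Cxcl13 came from. Interstitial macrophages gave 79.3% and 54.5% of the Cxcl13 UMIs in BPTES 1 and 2 and 18.4% and 59.3% in DMSO 1 and 2. Adventitial fibroblasts gave 2.30% and 26.6% against 57.8% and 35.1%. In DMSO 1 a further 1748 UMIs lay in mesothelial cells, at 235 CPM, a class with 220 cells in that library and 5 to 67 in the others. The 8 mesothelial markers in adventitial fibroblasts summed to 3.97 and 13.9 CPM with BPTES and to 150.4 and 149.6 with DMSO, and their part in the Cxcl13 difference was not tested. The share of interstitial macrophages among CD45-positive cells was 5.66% and 6.40% with BPTES and 2.27% and 3.18% with DMSO (log2 fold change of the share 1.14, adjusted p = 0.0206 by edgeR over 25 classes).

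Beside Cxcl13, B cells made up 16.8% and 13.2% of the CD45-positive cells with BPTES and 32.1% and 28.3% with DMSO, 14.98% ± 2.59 against 30.2% ± 2.69 (SD, n = 2). The BPTES share was lower in both libraries, and the log2 fold change was −1.01 (SE 0.31, adjusted p = 0.0260 by edgeR over 25 classes). Leaving out any 1 library ended the call. The adjusted p was 0.250 without BPTES 1, 0.474 without BPTES 2, 0.147 without DMSO 1 and 0.0622 without DMSO 2. CD45-positive and CD45-negative cells were sorted and mixed at a fixed ratio, so the share speaks for the CD45-positive cells only. Cxcl13 in macrophages and in adventitial fibroblasts and the B cell share were all lower in both BPTES libraries than in either DMSO library.

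Cxcr5, the Cxcl13 receptor, was highest in B cells, at 279 and 268 CPM with BPTES and 243 and 261 with DMSO, and B cells held 77.5% of its UMIs. Its level within B cells was not called different (log2 fold change 0.14, adjusted p = 0.766 by edgeR). In interstitial macrophages Cxcr5 fell from 23.7 ± 5.68 to 6.21 ± 1.18 CPM (log2 fold change −1.94, adjusted p = 0.0277). The 8 B cell markers in the same macrophages summed to 194 and 139 CPM with BPTES and 631 and 658 with DMSO, and in adventitial fibroblasts to 483, 550.2, 873 and 774. All 8 had UMIs in every library. Markers of the other main Cxcl13 source were lower with BPTES too: the 8 adventitial markers in the macrophages (176 and 222 against 323 and 313 CPM) and the 8 interstitial macrophage markers in adventitial fibroblasts (36.8 and 34.1 against 58.7 and 43.9 CPM). The part of B cell, fibroblast or macrophage RNA in these values was not tested.

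Of the lymphoid aggregate genes (Bcl6, Ccl19, Ccl21a, Cr2, Fcer2a, Il21, Il7, Lta, Ltb, Ltbr, Madcam1, Tnfsf11 and Tnfsf13b), 130 pairs with a class were tested and 0 were called by edgeR in either direction. At an unadjusted p under 0.05 were 29, where all genes and classes gave 11.3%, and the median log2 fold change was −0.01. Fcer2a, the low-affinity IgE receptor of mature B cells, had a log2 fold change of −1.78 in interstitial macrophages (adjusted p = 0.0508), and Ltb, the lymphotoxin beta chain, had 0.95 in NK cells (adjusted p = 0.0584). Cr2, the complement receptor of B cells and follicular dendritic cells, was at 136 CPM with BPTES and 115 with DMSO in B cells (0.26, adjusted p = 0.598).

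Alveolar fibroblasts had little Cxcl13, 5.07 and 2.43 CPM with BPTES and 0.555 and 0.516 with DMSO (log2 fold change 2.83, adjusted p = 0.0619 by edgeR). It was called without BPTES 2 (3.25, adjusted p = 0.000896) and without DMSO 2 (2.80, adjusted p = 0.0296). The share of these cells with a UMI was 0.651% to 0.743% in all 4 libraries, and the 2 richest cells held 85.1% and 77.9% of the BPTES UMIs. In 1 of the 2 alveolar fibroblast clusters the value was 3.24 (adjusted p = 0.0283), where 0.523% of genes were called. The macrophage value minus the alveolar fibroblast value was −4.42 on the log2 scale (SE 0.17, adjusted p = 0.000415 by edgeR with a class and treatment interaction). Without the 2 richest cells of each library the difference was −2.44 and was not called (adjusted p = 0.0841).

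**Figure D3:**
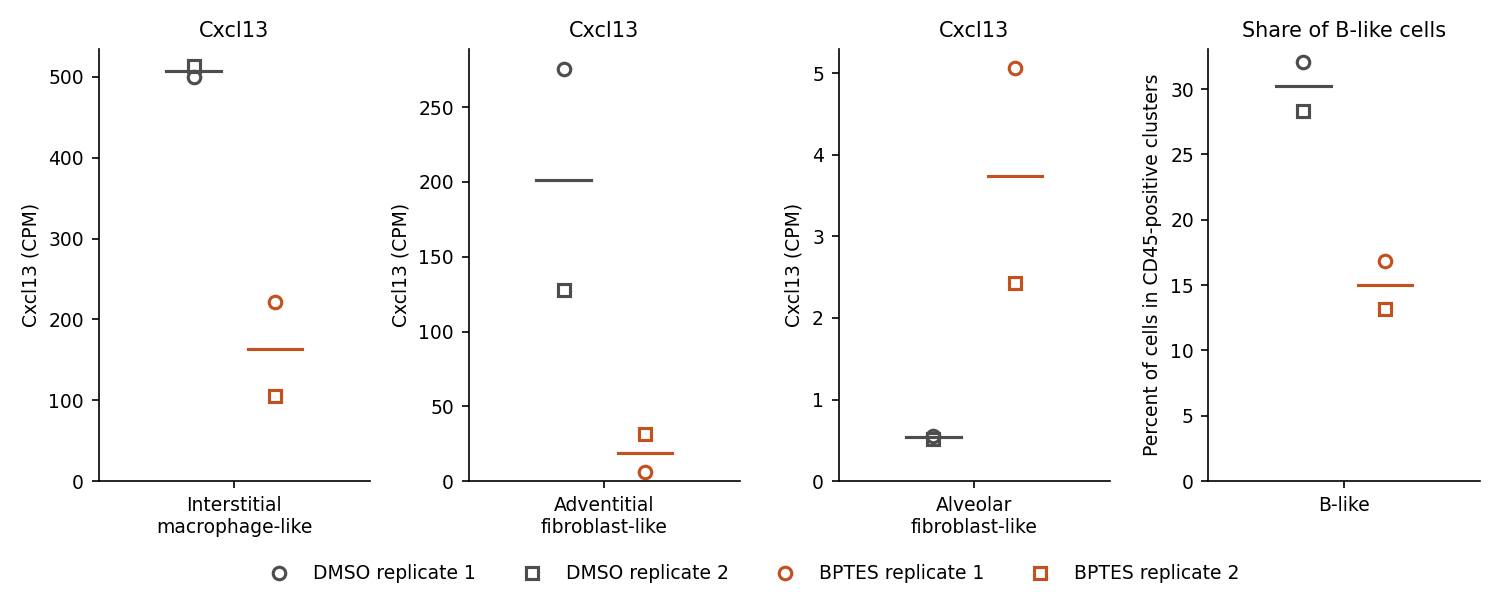
Panels, 1 point per library: Cxcl13 in CPM in interstitial macrophages, in adventitial fibroblasts and in alveolar fibroblasts, and B cells as a percent of CD45-positive cells. Each panel has its own axis, starting at 0. The BPTES points lie below the DMSO points in all panels but that of the alveolar fibroblasts, where they lie above.

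Among the neutrophil attractants, Cxcl2 was highest in neutrophils themselves, at 4266 and 3781 CPM in BPTES 1 and 2 and 5876 and 4918 in DMSO 1 and 2. Interstitial macrophages came next at 1924, 2141, 2042 and 1936 CPM, with a log2 fold change of 0.04 (interval −0.21 to 0.30). Both classes were apart from the rest, and no other tested class reached 10% of the neutrophil level. In neutrophils both BPTES libraries were below both DMSO libraries, at 4024 ± 343 against 5397 ± 678 CPM (SD, n = 2), but the log2 fold change of −0.51 (SE 0.14) was not called (adjusted p = 0.351 by edgeR, 0% of 11789 genes called). DESeq2 gave an adjusted p of 0.0235, and with 1 library left out edgeR called it only without DMSO 2 (−0.69).

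The neutrophils comprised 2 clusters. In the larger, led by S100a9 and Retnlg, Cxcl2 was at 6127 and 5919 CPM with BPTES and 8211 and 7694 with DMSO. It fell by 0.57 on the log2 scale in that cluster (adjusted p = 0.0226 by edgeR), where 0.401% of 9235 genes were called. In the smaller it was at 2168 and 1669 CPM with BPTES and 2260 and 2132 with DMSO, where the groups overlapped (−0.20, adjusted p = 0.639). The larger cluster held 79.2% and 74.4% of the neutrophils with BPTES and 84.0% and 76.5% with DMSO. Cxcl3, a close relative of Cxcl2, was at 55.7 and 57.9 CPM in neutrophils with BPTES and 78.2 and 123 with DMSO (−0.91, adjusted p = 0.224). Cxcr2, the receptor of both, had 96.1% of its UMIs in neutrophils, at 738 and 838 against 643 and 681 CPM (0.16, adjusted p = 0.678).

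Lower levels of Cxcl2 were seen in alveolar macrophages (245, 839, 226 and 474 CPM) and classical monocytes (229, 345, 238 and 397 CPM), and in both the groups overlapped. In non-classical monocytes Cxcl2 was at 275 and 278 CPM with BPTES and 164 and 184 with DMSO, 276 ± 2.38 against 174 ± 13.8. The groups did not overlap there and the log2 fold change was 0.68 (SE 0.084), with an adjusted p of 0.0836 by edgeR and 1.2e-06 by DESeq2, in a class where edgeR called 0.0171% of the genes. The share of these monocytes with a Cxcl2 UMI was 36.6% and 35.05% against 27.3% and 27.6%, and 21.4%, 21.6%, 18.0% and 15.6% after thinning. In B cells the share was 3.79% to 5.48%, and 1.21% to 1.66% after thinning. The larger B cell cluster had a Cxcl2 log2 fold change of 0.65 (adjusted p = 0.761 by edgeR), and the part of free RNA was not tested. The 8 neutrophil markers summed to 233 and 249.9 CPM in non-classical monocytes with BPTES and to 267 and 271 with DMSO, and the part of neutrophil RNA was not tested.

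An unnamed cluster led by Cd209a, Siglech, Ccl22 and Ccl17, genes of dendritic cells, held Cxcl2 at 405 and 415 CPM with BPTES and 142 and 151 with DMSO. Cxcl2 rose by 1.53 on the log2 scale there (SE 0.090, adjusted p = 0.0129 by edgeR, with 0.0613% of 11411 genes called). In conventional dendritic cells Cxcl2 was at 129, 151, 38.7 and 137 CPM, overlapping between groups, and was called without DMSO 2 (1.79, adjusted p = 0.00777). The difference between non-classical monocytes and neutrophils was 1.21 on the log2 scale and was not called (adjusted p = 0.157). Cxcl2 was higher with BPTES in 11 of the 22 tested classes and lower in 11.

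Cxcl1 shares Cxcr2 with Cxcl2 but came from stroma. Adventitial fibroblasts held 512 and 374 CPM with BPTES and 955 and 619 with DMSO, 443 ± 97.4 against 787 ± 238 (SD, n = 2), and smooth muscle held 335, 507, 942 and 415 CPM. The ranges of these classes overlapped, and both lay above interstitial macrophages (78.9, 165, 223 and 75.0 CPM). In adventitial fibroblasts both BPTES libraries were below both DMSO libraries, and the log2 fold change of −0.81 (SE 0.24) was not called (adjusted p = 0.274 by edgeR). With 1 library left out it was called only without DMSO 2 (−1.10). In DMSO 1, mesothelial cells held a further 7656 Cxcl1 UMIs, at 1031 CPM, and the mesothelial markers in adventitial fibroblasts differed between the groups as given above.

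Alveolar fibroblasts had Cxcl1 at 94.1 and 99.6 CPM with BPTES and 75.3 and 66.7 with DMSO, a log2 fold change of 0.48 (SE 0.084, adjusted p = 0.0795 by edgeR and 0.000467 by DESeq2). The groups did not overlap. The 2 clusters of the class gave values of opposite sign, neither of them called. In the larger Cxcl1 was at 33.7 and 22.5 CPM with BPTES and 37.8 and 38.7 with DMSO (−0.43, adjusted p = 0.231), and in the other at 169.3 and 211.5 against 169.6 and 117.7 (0.43, adjusted p = 0.223). The larger, with less Cxcl1, held a smaller share of the class with BPTES, as given with Cxcl12. In 3 other clusterings edgeR called the class value: 0.70 (adjusted p = 0.0449) with a mitochondrial limit of 5%, 0.53 (adjusted p = 0.0486) at resolution 2 and 0.74 (adjusted p = 0.0348) with another random seed. The difference between the adventitial and the alveolar value was −1.27 on the log2 scale and was not called (adjusted p = 0.140).

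**Figure D4:**
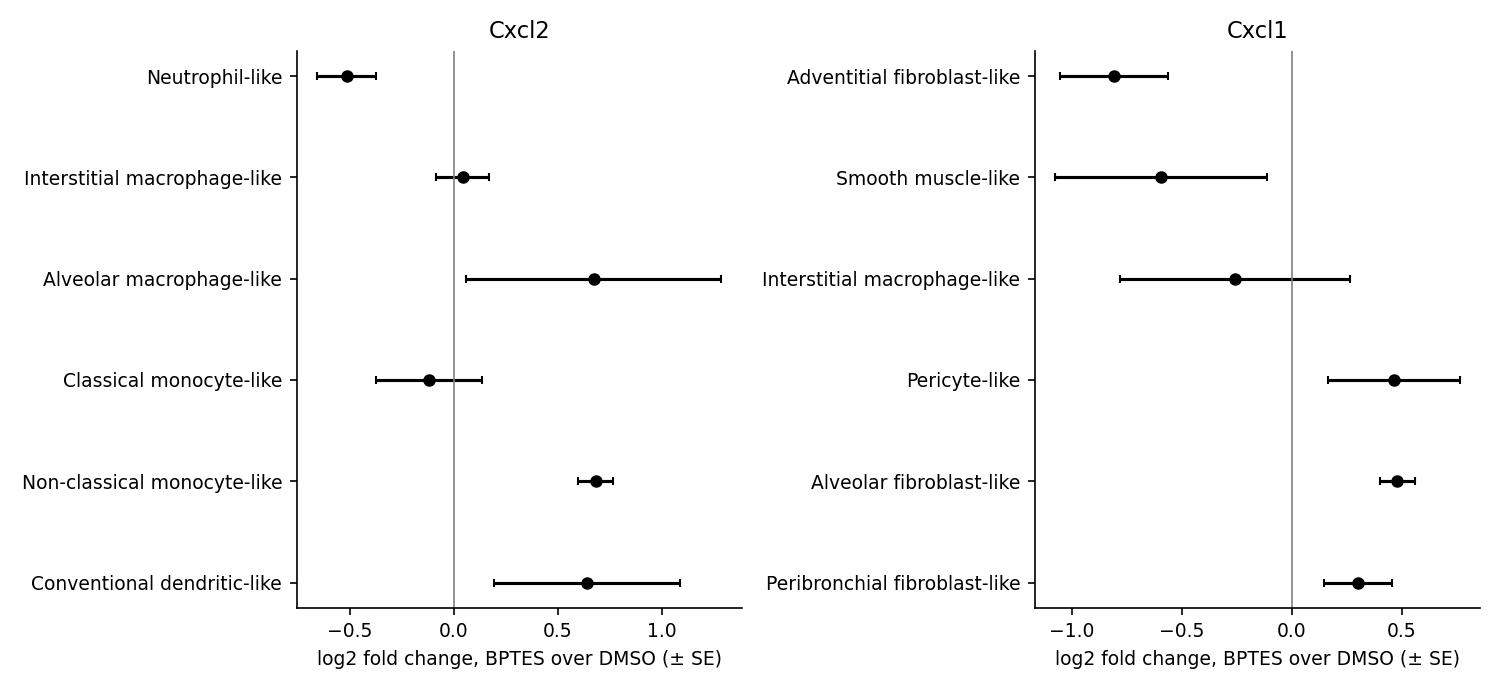
Log2 fold change of BPTES over DMSO for Cxcl2 and Cxcl1 by class, with bars of 1 SE from edgeR. Cxcl2 lies below 0 in neutrophils (−0.51) and above 0 in non-classical monocytes (0.68), and Cxcl1 lies below 0 in adventitial (−0.81) and above 0 in alveolar fibroblasts (0.48), none of them called at an adjusted p under 0.05.

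Of the NF-kB early response genes (Ccl3, Ccl4, Icam1, Ier3, Il1b, Il6, Nfkbia, Nfkbie, Nfkbiz, Tnf, Tnfaip3 and Zc3h12a), 233 pairs were tested, 0 were called higher and 1 lower, Ier3 in AT2 cells (−0.58, adjusted p = 0.0433 by edgeR, with 0.499% of the class's genes called). The groups did not overlap in 38 pairs higher and 70 lower with BPTES, where all genes and classes gave 18.8% and 24.3%, and the median log2 fold change was −0.07.

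Cxcl15 stood at 8592 and 8870 CPM in AT2 cells with BPTES and 6957 and 8911 with DMSO, and every AT2 cell had a UMI. The groups overlapped (log2 fold change 0.20, interval −0.07 to 0.46, adjusted p = 0.516 by edgeR). Among CD45-negative cells, the AT2 share was 3.54% and 3.63% in BPTES 1 and 2 and 1.13% and 1.86% in DMSO 1 and 2 (log2 fold change of the share 1.26, adjusted p = 0.0181 by edgeR over 25 classes). The class next in order, named for alveolar type 1 (AT1) cells, was at 273, 172, 309 and 327 CPM but held secretory cells too. At resolution 2 these parted, with Cxcl15 at 770.1, 397, 541 and 1001 CPM in the secretory cells and 30.3, 42.4, 4.16 and 13.4 in AT1 cells.

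In the other 20 tested classes Cxcl15 was low, with a median over classes of 13.4 and 11.2 CPM with BPTES against 2.82 and 6.63 with DMSO, 0.0405% to 0.156% of the AT2 level of the same library. The classes ran from 6.29 to 17.4 CPM in BPTES 1, 6.05 to 40.5 in BPTES 2, 0.344 to 5.71 in DMSO 1 and 3.14 to 11.1 in DMSO 2. It was higher with BPTES at an unadjusted p under 0.05 in 17 of 22 classes and called in none by edgeR, while DESeq2 called 2. The DESeq2 calls were in classical monocytes and NK cells. In NK cells Cxcl15 passed the filter on low counts only through the BPTES libraries, where it was high, so its test is not read. These counts include that pair. The 8 AT2 markers moved with Cxcl15. They summed to 332 and 499 CPM in T cells with BPTES and to 111 and 209 with DMSO. In general capillary endothelium they summed to 419.98, 308, 161 and 264 CPM. AT2 cells numbered 386, 392, 114 and 245 in the 4 libraries, and the 2 libraries with fewer AT2 cells had the lower medians. The part of free AT2 RNA in these values was not tested.

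Cxcl10, induced by interferons, was highest in peribronchial fibroblasts or myofibroblasts, at 206.5 and 215 CPM in BPTES 1 and 2 and 276 and 261 in DMSO 1 and 2. Smooth muscle (72.0, 46.6, 292 and 138 CPM) and adventitial fibroblasts (141, 101, 127 and 105 CPM) followed, then interstitial macrophages (59.9, 82.5, 17.0 and 42.4 CPM) and alveolar fibroblasts (29.6, 36.4, 39.8 and 36.7 CPM). Neighbours in this order overlapped except adventitial fibroblasts and interstitial macrophages. Adventitial and alveolar fibroblasts held 18.5% and 19.9% of the UMIs.

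No Cxcl10 difference was called by edgeR. In peribronchial cells both BPTES libraries were below both DMSO libraries, 211 ± 6.14 against 269 ± 10.5 CPM (SD, n = 2), with a log2 fold change of −0.33 (SE 0.11, adjusted p = 0.396). Smooth muscle gave −1.79 (SE 0.42, adjusted p = 0.9995), and there the 2 richest cells held 52.7% to 74.1% of each library's UMIs. Interstitial macrophages gave 1.22 (SE 0.34, adjusted p = 0.149), 0.80 (adjusted p = 0.522) once the 2 richest cells of each library were removed, 1.46 (adjusted p = 0.0338) without BPTES 1 and 2.05 (adjusted p = 0.0149) without DMSO 2. Adventitial and alveolar fibroblasts gave 0.08 (interval −0.27 to 0.43) and −0.18 (interval −0.40 to 0.04).

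Below 10% of the highest level, classical monocytes had Cxcl10 at 30.4 and 24.5 CPM with BPTES and 16.4 and 14.2 with DMSO, a log2 fold change of 0.87 (SE 0.14) with an adjusted p of 0.0745 by edgeR and 0.00158 by DESeq2, in a class where edgeR called 0.114% of genes. With a mitochondrial limit of 5% edgeR called it (0.98, adjusted p = 0.0495), as it did without BPTES 2 (1.01, adjusted p = 0.0247). The share of monocytes with a UMI was 7.35% and 5.73% with BPTES and 4.96% and 6.99% with DMSO, so it overlapped between groups, and the 2 richest cells held 31.5% to 88.7% of a library's UMIs. In B cells 0.281% to 1.15% of cells had a Cxcl10 UMI.

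Venous endothelium went the other way in mean level, at 16.5 and 8.47 CPM with BPTES and 29.4 and 24.9 with DMSO (log2 fold change −1.08, adjusted p = 0.164 by edgeR and 0.0164 by DESeq2). It was called without BPTES 1 (−1.60, adjusted p = 0.0192) and without DMSO 2 (−1.19, adjusted p = 0.0112). The monocyte value exceeded the venous one by 1.98 on the log2 scale (adjusted p = 0.0506), and by 2.57 without the 2 richest cells (adjusted p = 0.117). The macrophage value exceeded the venous one by 2.31 (adjusted p = 0.182). Over the 18 classes tested, Cxcl10 was higher with BPTES in 8 and lower in 10. At an unadjusted p under 0.05 were 2 higher and 6 lower, and the groups did not overlap in 2 classes higher and 7 lower, where all gene and class pairs gave 18.8% and 24.3%. Among the lower ones was aerocyte endothelium, at 0.992 and 0.920 CPM with BPTES and 6.45 and 3.57 with DMSO, on 6 to 36 UMIs. There Cxcl10 passed the filter on low counts only through the DMSO libraries, where it was high. These counts include that pair, but its test is not read. Lymphatic endothelium overlapped between groups (0.790, 5.49, 13.8 and 2.11 CPM). In DMSO 1, mesothelial cells held Cxcl10 at 489 CPM.

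**Figure D5:**
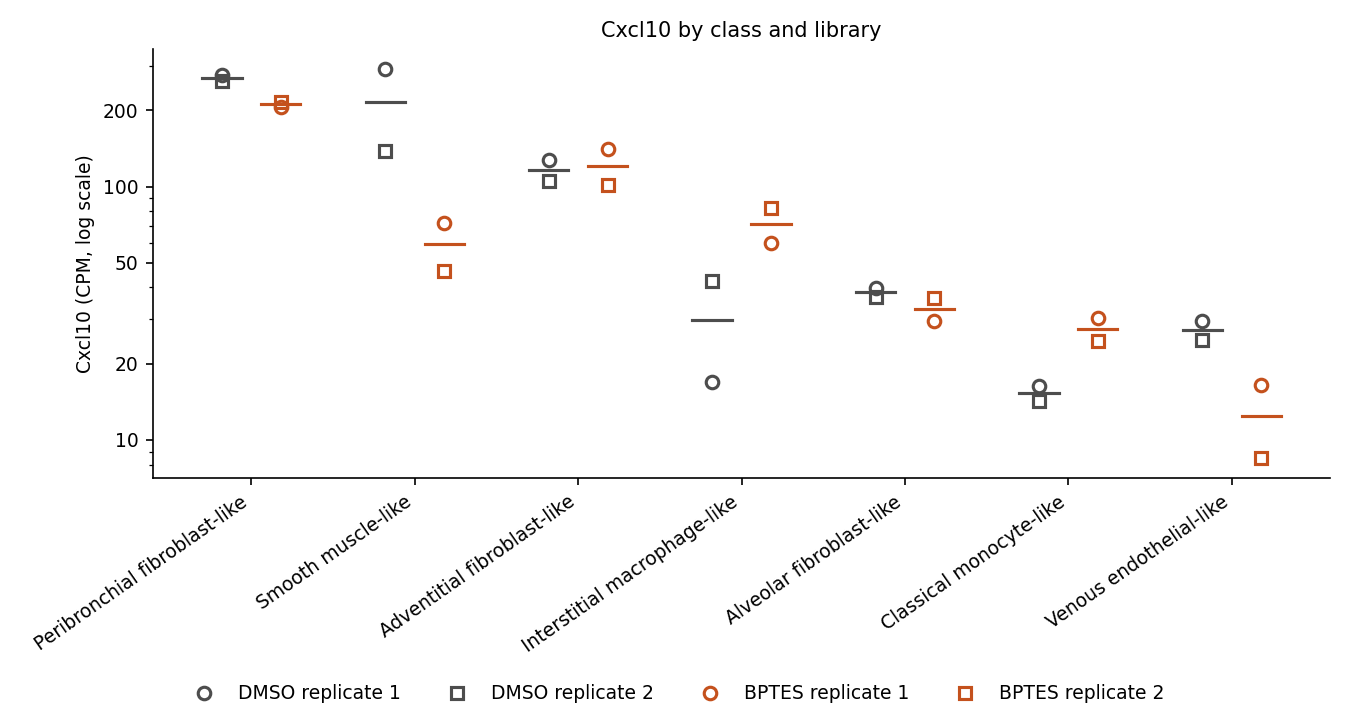
Cxcl10 in CPM (log axis) in each library and 7 classes. The BPTES points lie above the DMSO points in interstitial macrophages and classical monocytes, below them in peribronchial cells, smooth muscle, alveolar fibroblasts and venous endothelium, and overlap in adventitial fibroblasts.

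Cxcl9, the other interferon-induced ligand, was led by conventional dendritic cells, at 89.1 and 24.6 CPM with BPTES and 21.9 and 24.9 with DMSO. These rest on 354, 116, 47 and 103 UMIs, of which the 2 richest cells held 59.6% to 94.6%. The groups overlapped and the log2 fold change was 1.26 (SE 0.56, adjusted p = 0.912 by edgeR), and −0.18 without the 2 richest cells per library. Interstitial macrophages had 2.26, 34.8, 6.00 and 5.32 CPM, with BPTES 2 alone high. Without BPTES 2 the macrophage value was −1.30 (adjusted p = 0.629) and without BPTES 1 it was 2.66 (adjusted p = 0.000294). In smooth muscle BPTES 1 had 96 UMIs, all in 2 cells. The ranges of neighbouring classes overlapped throughout the first 9 classes. Cxcl9 was tested in 8 classes. At an unadjusted edgeR p under 0.05 were 0 higher and 2 lower with BPTES, where all genes and classes gave 11.3%. The groups did not overlap in 0 classes higher and 2 lower, where all gene and class pairs gave 18.8% and 24.3%.

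Of the interferon-gamma axis genes (Cd274, Ciita, Gbp2, Gbp4, Gbp5, Ido1, Ifng, Ifngr1, Ifngr2, Iigp1 and Irf1), 186 pairs were tested, and 0 were called higher and 4 lower by edgeR, where 0.116% of all gene and class pairs were called. Irf1, a transcription factor of the interferon response, fell in alveolar fibroblasts, the class where Cxcl12 rose, from 217 and 196 CPM with DMSO to 132 and 136 with BPTES (log2 fold change −0.59, adjusted p = 0.0455, with 0.227% of the class's genes called). It fell in lymphatic endothelium too (−0.57), as did Iigp1, an interferon-induced GTPase (−0.57), in a class where 0.254% of genes were called. Iigp1 also fell in interstitial macrophages (−1.61, adjusted p = 0.0312, with 1.03% of the class's genes called), from 18.6 ± 0.893 to 6.07 ± 0.844 CPM, the class in which the mean Cxcl10 level was higher. The median log2 fold change of the list was −0.11, and 23 pairs did not overlap higher and 67 lower, where all genes and classes gave 18.8% and 24.3%. Cxcr3, the receptor of Cxcl9 and Cxcl10, was highest among tested classes in T cells, which held 27.5% of its UMIs, at 58.4 and 49.5 CPM with BPTES and 65.7 and 89.8 with DMSO (−0.46, adjusted p = 0.368).

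Cxcl14 was a transcript of pericytes (362, 389, 401 and 365 CPM), alveolar fibroblasts (251, 283, 247 and 236 CPM) and adventitial fibroblasts (260.0, 311, 155 and 186 CPM), with pericytes apart from the rest and no other tested class above 10% of their level. The pericyte log2 fold change was −0.02 (interval −0.25 to 0.20) and the alveolar one 0.18 (interval 0.01 to 0.35, adjusted p = 0.286 by edgeR). In adventitial fibroblasts both BPTES libraries were above both DMSO libraries and the value was 0.78 (SE 0.13, adjusted p = 0.194 by edgeR and 0.000234 by DESeq2). With 1 library left out it was called only without DMSO 2 (0.89).

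The 2 adventitial clusters differed in Cxcl14. The one led by Adh7 and Dner had 554.0, 688, 512 and 507 CPM, and the other 73.4, 83.0, 61.5 and 30.5. The first held 39.9% and 38.9% of the class with BPTES and 24.1% and 36.3% with DMSO, and by itself gave a log2 fold change of 0.33 (adjusted p = 0.431 by edgeR), and the other gave 0.78 (adjusted p = 0.446). Cxcl14 was also high in unnamed clusters with alveolar fibroblast markers: 641, 626, 692 and 566 CPM in one led by Atf5 and Gpx3, and 437, 529, 397 and 395 in one led by Col28a1, which had 26.8% of all Cxcl14 UMIs.

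Cxcl16 was highest in interstitial macrophages (285, 255, 314 and 302 CPM) and conventional dendritic cells (248, 257, 228 and 225 CPM), whose ranges overlapped, and was apart in these from all other tested classes. The AT1 class followed at 140.1, 104, 75.4 and 101 CPM. At resolution 2, where secretory cells were parted from it, AT1 cells had 204 and 160.5 CPM with BPTES and 170.4 and 147 with DMSO, and the secretory cells 2.41 to 7.97. The unnamed cluster with dendritic genes had 285, 231, 217 and 215 CPM. The log2 fold change was −0.18 (interval −0.40 to 0.05) in interstitial macrophages and 0.15 (interval −0.07 to 0.36) in dendritic cells, neither called by edgeR. In alveolar fibroblasts Cxcl16 was at 21.3 and 20.3 CPM with BPTES and 12.9 and 16.1 with DMSO (0.55, adjusted p = 0.111 by edgeR and 0.0178 by DESeq2). With 1 library left out it was called there only without DMSO 2 (0.74). Of the tested classes its receptor Cxcr6 was highest in T cells, which held 13.3% of its UMIs, at 100.4, 57.0, 45.1 and 93.1 CPM, where the groups overlapped.

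For each member the genes most like it were the 3 with the highest Pearson correlation of log2(CPM + 1) over the 22 classes, given as a description with no test, since the classes share libraries. Cxcl15 was closest to the surfactant genes Sftpb (r = 0.996), Sftpa1 and Sftpd. Cxcl2 was closest to Clec4d (r = 0.95), Cd33 and Nlrp3, genes of myeloid cells, and Cxcl14 to Gfra2 (r = 0.95), Svep1 and Olfml3. Cxcl12 was closest to Ntrk2 (r = 0.93), Msx1 and Wfdc1, and Cxcl1 to Col14a1 (r = 0.86), Htra3 and Trip6. Cxcl13 was closest to Ccl8 (r = 0.85), a chemokine of macrophages, followed by St18 and Cxcl14. Cxcl16 was closest to its overlapping neighbour Zmynd15 (r = 0.85), Cxcl10 to Gm15726 (r = 0.81) and Cxcl9 to Rbpj (r = 0.83).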

How the data were processed

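Lungs of BPTES- and DMSO-treated aged mice were profiled in 4 libraries. The authors deposited filtered matrices of raw UMI counts per gene and cell, and Cell Ranger 8.0.1 and the build mm10 are named in the submitters' processing notes. Cells with under 500 genes, under 1000 UMIs or over 10% mitochondrial UMIs were left out. Doublets were scored per library against synthetic doublets, and the highest-scoring cells were removed at a rate of 0.4% per 1000 cells (942 to 1689 per library). Cells were clustered by Leiden communities (2000 variable genes, 40 components, 15 neighbours, resolution 1; igraph 0.11.9, Python 3.11.15). Clusters took the name of their leading marker list with at least 3 detected markers, and the score limits for naming were set after the clusters were seen. A name was also withheld where another list matched as many or more of the cluster's 10 leading genes. Where the leading list matched none of these genes, shallow clusters stayed unnamed. So did those whose second list scored at least 0.5 of the first.

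UMIs summed per library and class were tested with edgeR 4.0.16 (quasi-likelihood, TMM, low counts filtered) over all genes, with BPTES and DMSO as groups, and shares of cells with the same model. DESeq2 1.42.0 was an alternative. Each SE was derived from the test, as the size of the log2 fold change divided by the square root of edgeR's F statistic. Intervals are 2 SE. The test was checked on simulated sums with known changes in genes drawn at random, with the same dispersion for all genes of a class. This does not model genes carried by few cells, such as Cxcl9 and Cxcl13, so it gives no recovery for them. Of 50 genes changed 2-fold in summed counts it called 46 in alveolar fibroblasts (16293 genes), 36 in interstitial macrophages (12205 genes) and 31 in adventitial fibroblasts (14681 genes). Of 50 changed 1.5-fold it called 31, 7 and 13, and it made 7, 12 and 6 false calls in these fits. Other settings were RLE size factors, no filter, each library left out, other clusterings, doublets kept, a 5% mitochondrial limit and the 2 richest cells removed. Cluster-level tests and all but 1 difference between classes were chosen after seeing the data.

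Members are described in up to 3 leading classes and wherever called, and Cxcl2, Cxcl10, Cxcl12 and Cxcl13 in each class at 10% or more of their highest level. Other classes, and list genes called elsewhere, were named after their values were seen. The members and lists were chosen with earlier results of these data known, and 1 gene of each of 2 lists is not reported here. Mesothelial, plasma and platelet classes had under 30 cells in a library, so their levels were not tested, only their shares. The mesothelial share of CD45-negative cells was 0.0459% and 0.139% with BPTES and 2.18% and 0.509% with DMSO. Its log2 fold change was −3.84 (adjusted p = 0.000316 by edgeR over 25 classes). The plasma and platelet shares were not called (adjusted p = 0.372 and 0.879).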

Additional observations from a re-analysis of the deposited data

Results flagged for a closer look

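With all cells in the sums, the fitted response of Cxcl13 to BPTES differed between interstitial macrophages and alveolar fibroblasts. The log2 fold change of BPTES over DMSO was −1.62 in the macrophages (222 and 106 against 499.99 and 514 CPM) and 2.83 in the alveolar fibroblasts (5.07 and 2.43 against 0.555 and 0.516 CPM). The macrophage value minus the fibroblast value was −4.42 (SE 0.17, adjusted p = 0.000415 over 11695 genes, by edgeR with a class and treatment interaction and a term for each library). It was 1 of 6 such differences computed, and the pair of classes was chosen after their values were seen. The 2 richest alveolar fibroblasts held 85.1% and 77.9% of that class's Cxcl13 UMIs in the BPTES libraries, and without the 2 richest cells per library the difference was −2.44 (adjusted p = 0.0841).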

How the results depend on the processing

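Of the pairs of a member and a class, 1 was called. RLE size factors called 1 too. DESeq2 called 14, no filter on low counts 53 (2.67% of all genes), and the fits with 1 library left out 4 to 29. Doublets kept, a mitochondrial limit of 5%, resolution 2 and another seed each called 2 (0.18%, 0.165%, 0.169% and 0.136% of all genes). The labels do not say whether libraries of the same number were processed together. The deviations of same-numbered libraries had a correlation of −0.11 over all kept cells, which with 2 libraries per group cannot decide whether the numbers pair the samples. With the replicate block 17 pairs were called (1.45% of all genes), and with the crossed replicate block 18 (1.11%). Over all kept cells 0 members were called, DESeq2 called 4, and leaving out 1 library called 0 to 2. The B cell share gave −1.02 with the replicate block (adjusted p = 0.126) and −1.20 to −0.85 with 1 library left out.

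For 30 named pairs, 474 values under other settings were compared: 405 kept direction and side of the threshold, 40 passed it anew, 4 missed it and 25, in 12 pairs, changed sign. With 1 library left out, log2 fold changes that changed sign ran from −0.91 to 0.75 for Cxcl1 in interstitial macrophages, −1.06 to 0.13 for Cxcl1 in smooth muscle, −0.15 to 0.28 for Cxcl10 in adventitial fibroblasts, −0.096 to 0.048 for Cxcl14 in pericytes, −0.49 to 1.33 for Cxcl2 in alveolar macrophages, −0.048 to 0.13 for Cxcl2 in interstitial macrophages and −1.30 to 2.66 for Cxcl9 there. At resolution 0.5, values were 0.19 for Cxcl1, 0.042 for Cxcl16 and −0.56 for Cxcl9 in interstitial macrophages and −0.23 for Cxcl10 in adventitial fibroblasts. The last was −0.14 with the 5% mitochondrial limit, −0.12 with another seed and −0.083 with the members kept for clustering. With doublets kept, Cxcl12 in adventitial fibroblasts was 0.10, Cxcl13 in pericytes −0.11, Cxcl2 in interstitial macrophages −0.012 and Cxcl9 in dendritic cells −0.34. Without the 2 richest cells, Cxcl1 in interstitial macrophages was 0.21 and Cxcl9 in dendritic cells −0.18. At resolution 2, Cxcl15 in AT1 cells was 1.72. The cause of these changes was not tested. Cxcl9 in interstitial macrophages passed the threshold at the upper end of its range, without BPTES 1 (adjusted p = 0.000294), and no value on the changed side of 0 passed it.

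With 2 libraries per group, simulated 1.5-fold changes were called in 7 to 31 of 50 genes, by class. Simulated 2-fold changes were called in 31 to 46 of 50. These simulated counts gave all genes of a class the same dispersion, unlike the data. Members carried by few cells (Cxcl9, Cxcl13) depend on the cells sampled.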
